A study of Mus musculus with 6 samples.

Results

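The REG (regenerating) family genes were followed in RNA-seq libraries of isolated mouse pancreatic islets. The members were taken by gene symbol from the table of gene counts. Of 7 listed members, 6 were counted, namely *Reg1*, *Reg2*, *Reg3a*, *Reg3b*, *Reg3d* and *Reg3g*, among 19342 genes counted in all. *Reg4* was not analysed here. All 6 counted members passed the filter on low counts, with which 14619 genes were tested. The study compared islets of FXR knockout mice (FXR-/-) with those of control mice (FXR+/+). FXR, encoded by *Nr1h4*, is a nuclear receptor for bile acids. Each genotype had 1 female and 2 male libraries from mice aged 3 months, and the islets of all 6 were obtained by digesting the pancreas with collagenase P. The knockout mice were of the C57Bl/6 strain per the methods of the study. How the knockout was made is not given in the sources used here, and neither is whether a library holds 1 animal or several, so the p-values measure the spread between these libraries, which may in part be technical.

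REG proteins are small secreted lectins of the C-type fold. In the mouse pancreas, acinar cells, which make the digestive enzymes, are the main source of *Reg1* and *Reg2*, and REG genes are known to rise when the pancreas is injured or inflamed. *Reg3b* and *Reg3g* are best known from the intestinal epithelium, where their products act against bacteria, and their transcription is induced there and in the pancreas by interleukins that signal through STAT3. Islets isolated with collagenase carry some acinar tissue with them. Reads from both sources enter the same library.

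The 6 counted members lie next to each other on chromosome 6 of GRCm38.p6, at chr6:78370885-78468874, a stretch of 97990 bases in which GENCODE vM21 places no other gene. *Reg3b* opens the cluster on the plus strand at chr6:78370885-78373466. It is followed by *Reg3d* on the minus strand at chr6:78375874-78378865, and by *Reg3a* on the plus strand at chr6:78380709-78383839. *Reg2*, at chr6:78405155-78408099, and *Reg1*, at chr6:78425983-78428668, are both on the plus strand. *Reg3g* closes the cluster on the minus strand at chr6:78466269-78468874. The gaps between neighbours run from 1843 bases, between *Reg3d* and *Reg3a*, to 37600 bases, between *Reg1* and *Reg3g*. No member overlaps another annotated gene. *Reg4* lies apart, at chr3:98222138-98236748.

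The coding sequences of *Reg1* and *Reg2* share 78.8% of their bases, the highest identity of any pair. *Reg3b* and *Reg3g* share 76.0%, with a longest identical run of 35 bases between their whole transcripts, and *Reg3a* and *Reg3b* share 75.0%. No window of 50 bases of one member's transcript occurs in that of another. How the counting treated reads that match more than one gene is not given in the sources used here, so single short reads of close members can still have been split between them.

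The 250 bases before the annotated start of 5 members are shown. They were chosen as genes that followed acinar RNA closely (*Reg1*, *Reg2* and *Reg3d*) or less closely (*Reg3b* and *Reg3g*). *Reg3a* also followed it less closely and is not shown. None of the motifs marked below was found in the *Reg3a* window. The sequences are RefSeq promoters on GRCm38.p6, printed along the gene's own strand. Capitals mark matches, on either strand, to TTTCCC (the TC-box of the acinar factor PTF1), to TTCNNNGAA (the palindrome bound by STAT factors) and to TATAAA (the TATA box).
Reg1 (chr6:78425733-78425982, plus strand): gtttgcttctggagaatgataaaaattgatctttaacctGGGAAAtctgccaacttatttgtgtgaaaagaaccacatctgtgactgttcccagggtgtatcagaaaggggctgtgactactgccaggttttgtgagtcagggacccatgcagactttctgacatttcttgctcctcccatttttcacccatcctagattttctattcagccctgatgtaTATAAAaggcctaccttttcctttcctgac
Reg2 (chr6:78404905-78405154, plus strand): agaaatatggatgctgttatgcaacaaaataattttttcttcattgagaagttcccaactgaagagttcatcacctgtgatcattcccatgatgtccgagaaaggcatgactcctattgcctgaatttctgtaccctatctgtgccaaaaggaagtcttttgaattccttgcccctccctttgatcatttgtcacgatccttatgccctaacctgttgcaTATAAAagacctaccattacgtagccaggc
Reg3d (chr6:78378866-78379115, minus strand): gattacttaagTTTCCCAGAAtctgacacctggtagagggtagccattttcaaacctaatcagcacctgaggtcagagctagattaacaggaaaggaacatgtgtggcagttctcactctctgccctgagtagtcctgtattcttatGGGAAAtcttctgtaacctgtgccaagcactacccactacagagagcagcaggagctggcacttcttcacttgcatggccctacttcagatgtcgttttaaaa
Reg3b (chr6:78370635-78370884, plus strand): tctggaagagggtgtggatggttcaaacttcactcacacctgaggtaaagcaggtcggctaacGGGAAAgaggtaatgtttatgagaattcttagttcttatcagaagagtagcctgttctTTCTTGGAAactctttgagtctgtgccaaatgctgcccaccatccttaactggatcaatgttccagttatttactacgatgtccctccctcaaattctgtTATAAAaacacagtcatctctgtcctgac
Reg3g (chr6:78468875-78469124, minus strand): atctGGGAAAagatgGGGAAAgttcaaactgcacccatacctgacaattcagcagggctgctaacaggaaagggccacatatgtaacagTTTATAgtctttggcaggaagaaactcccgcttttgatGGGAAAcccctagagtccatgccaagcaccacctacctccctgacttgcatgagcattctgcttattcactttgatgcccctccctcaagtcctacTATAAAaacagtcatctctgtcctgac

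A TATA box ended 24 or 25 bases before the start in *Reg1*, *Reg2* and *Reg3b*, and 22 bases before it in *Reg3g*. TATAAA was found in 4 of the 7 listed members and in 13.0% of 27025 RefSeq promoters of the same length. The TC-box was found in *Reg1*, *Reg3b*, *Reg3d* and *Reg3g*, against 21.9% of all promoters, and it occurred 3 times in *Reg3g*. The STAT palindrome was found in *Reg3b* and *Reg3d*, against 7.18% of all promoters. In *Reg3d* it overlaps a TC-box. The E-box CANNTG, the other element of PTF1 sites, was found in all 7 and in 66.0% of all promoters, so it does not tell the members apart. The inverted repeat of AGGTCA with a spacer of 1 base, the consensus that FXR binds, was found in none of the 7 windows and in 0.007% of all promoters. These letters describe the windows and were not tested against expression. The promoters of *Reg3b* and *Reg3g* share 69.2% of their bases, more than any other pair of members, and those of *Reg1* and *Reg2* share 62.4%.

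The total gene count per library lay between 20629306 and 30139235. *Nr1h4* had 333, 274 and 386 counts in FXR+/+ female 1, male 1 and male 2, and 140, 145 and 138 counts in the FXR-/- libraries in that order, so its transcript was lower in every FXR-/- library but still present, with a log2 difference of -1.07 (SE 0.160, adjusted p = 0.215 by edgeR's quasi-likelihood test). Blocked on the replicate number, *Nr1h4* had an adjusted p of 0.0437, and with DESeq2 it was 7.89e-05. Islet markers were abundant, as 10 beta cell genes took 19.2% to 25.7% of the counts. Acinar RNA was measured as the share of counts taken by 30 genes of acinar enzymes and secreted proteins, none of them a REG gene. This share was 6.02% in FXR+/+ female 1, 14.8% in FXR+/+ male 1 and 5.31% in FXR+/+ male 2. It was 7.72% in FXR-/- female 1, 15.4% in FXR-/- male 1 and 9.64% in FXR-/- male 2. The male 1 libraries of both genotypes therefore held the most acinar RNA. In bulk RNA, more acinar cells and more RNA per acinar cell cannot be told apart.

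*Reg1* and *Reg2* made up most of the REG transcripts in every library. *Reg1* took 44.2% to 53.4% and *Reg2* 38.5% to 42.5% of the counts of the 6 members, while *Reg3b* took 2.70% to 7.92%, *Reg3a* 1.88% to 4.52%, *Reg3d* 1.81% to 2.26% and *Reg3g* 0.133% to 0.539%. Together the members held 0.127% to 0.347% of all counts. Levels between genes were compared as CPM (a library's counts scaled to 1e+06 with TMM factors) per kb of transcript. On this scale the median over the 6 libraries was 1404 for *Reg1*, 1376 for *Reg2*, 151 for *Reg3b*, 77.6 for *Reg3a*, 54.1 for *Reg3d* and 10.1 for *Reg3g*. *Reg1* was above *Reg2* in 3 of 6 libraries, so these neighbours in the order did not differ beyond their spread. *Reg2* was above *Reg3b* and *Reg3d* above *Reg3g* in all 6, with ranges that did not overlap. *Reg3b* was above *Reg3a* in 6 of 6 libraries and *Reg3a* above *Reg3d* in 5 of 6, with ranges that overlapped.

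**Figure D1:**
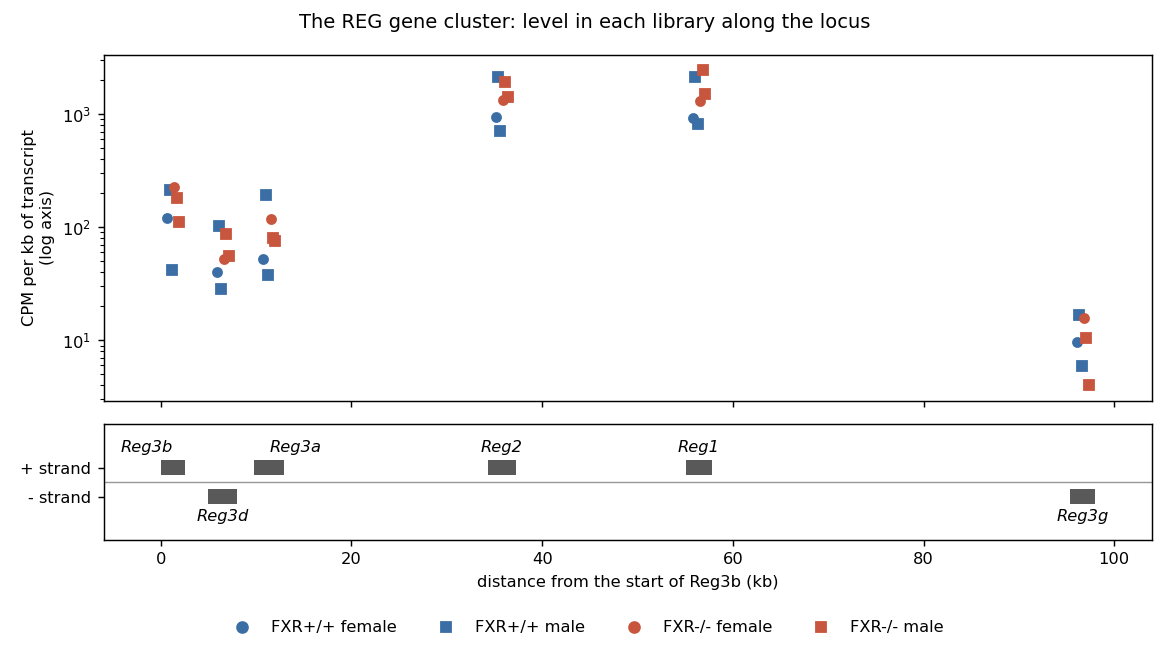
The upper panel plots the level of each REG gene in each library (CPM per kb of transcript, log axis) at the gene's place in the cluster, and the lower panel draws the genes to scale by strand, as the distance in kb from the start of Reg3b. Points are single libraries, coloured by genotype and shaped by sex, and are set slightly apart sideways. Reg2 and Reg1, in the middle of the cluster, stood at 714 CPM per kb or more in every library, and the Reg3 genes at 228 or less.

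*Reg1*, the founding member of the family, had a level of 715, 1626 and 621 CPM in FXR+/+ female 1, male 1 and male 2, and of 996, 1872 and 1155 CPM in the FXR-/- libraries in the same order. *Reg2*, its closest relative, had 659, 1504 and 498 CPM in the FXR+/+ and 929, 1349 and 992 CPM in the FXR-/- libraries. In both genes the male 1 libraries were highest and FXR+/+ male 2 was lowest, and the genotypes overlapped.

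*Reg3a* had a level of 43.0, 160 and 31.3 CPM in the FXR+/+ libraries and of 98.4, 65.7 and 62.4 CPM in the FXR-/- libraries. *Reg3b* had 95.2, 168 and 32.6 CPM in FXR+/+ and 179, 142 and 86.3 CPM in FXR-/-. For *Reg3a* FXR+/+ male 1 was highest, and for *Reg3b* FXR-/- female 1 was.

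*Reg3d* had 31.5, 80.2 and 22.2 CPM in the FXR+/+ libraries and 40.8, 68.0 and 43.7 CPM in the FXR-/- libraries, with the order of libraries seen for *Reg2*. *Reg3g*, the least abundant member, was counted 175, 259 and 146 times in FXR+/+ and 300, 155 and 74 times in FXR-/-, that is at 7.46, 12.8 and 4.61 CPM and at 12.2, 8.15 and 3.11 CPM. In all 6 members the values of the genotypes overlapped, while 15.4% of all genes tested had genotypes that did not.

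**Figure D2:**
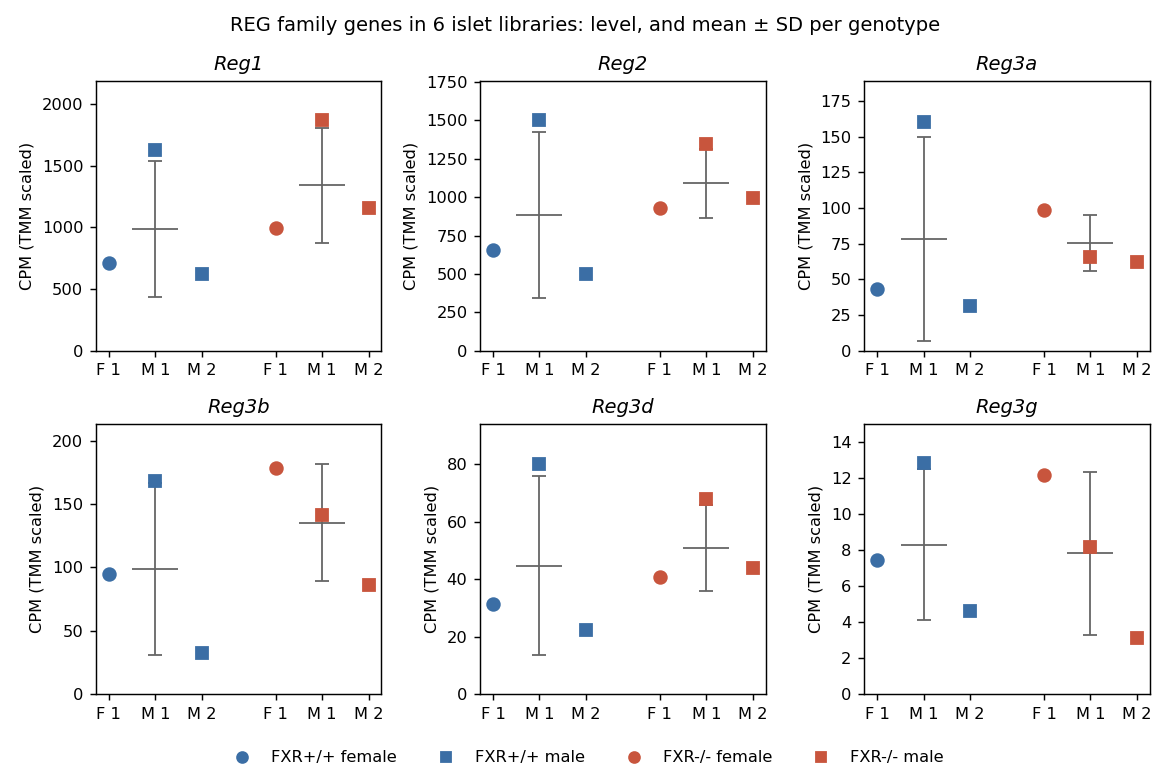
Level of each REG gene (CPM, linear axis from 0) in the 6 libraries, with F 1, M 1 and M 2 for female 1, male 1 and male 2, FXR+/+ to the left and FXR-/- to the right. Grey bars give the mean ± SD of the 3 libraries of a genotype. For Reg1 the means were 987 ± 555 and 1341 ± 467 CPM, and in every panel the points of the genotypes overlap.

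The first question of the design is whether REG transcripts differed between FXR-/- and FXR+/+ islets. No member was called different (edgeR's quasi-likelihood test beside sex, Benjamini-Hochberg adjusted p under 0.05), and the background was 0% of 14619 genes called. None of the 6 had an unadjusted p under 0.05 either, a bar that 10.3% of all genes passed. The log2 difference, FXR-/- minus FXR+/+, was 0.45 (SE 0.347, adjusted p = 0.623) for *Reg1* and 0.32 (SE 0.365, adjusted p = 0.744) for *Reg2*. Within the Reg3 genes it was 0.43 (SE 0.522, adjusted p = 0.760) for *Reg3b*, 0.21 (SE 0.412, adjusted p = 0.850) for *Reg3d*, -0.0048 (SE 0.592, adjusted p = 0.997) for *Reg3a* and -0.17 (SE 0.500, adjusted p = 0.906) for *Reg3g*. The median of the members was 0.26 and that of all genes 0.0084. The standard errors are wide, so differences of the size of these estimates were not detectable with 3 libraries per genotype. DESeq2, which called 177 genes, and a fit blocked on the replicate number, which called 24, called no member. Leaving out FXR+/+ male 1 put all 6 members above 0, from 0.46 for *Reg3g* to 1.40 for *Reg3b*, with none called (adjusted p from 0.0839 to 0.576).

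Same-numbered libraries of the genotypes showed how this difference varied. The acinar share was higher in the FXR-/- library of each pair, by 1.28-fold in female 1, 1.04-fold in male 1 and 1.82-fold in male 2. In CPM, *Reg1* was higher by 1.39-fold, 1.15-fold and 1.86-fold in the same pairs. CPM carries the TMM factors and the acinar share does not, so these folds are not on the same scale. Per count of the 30 acinar genes, the ratio of FXR-/- to FXR+/+ for *Reg1* was 1.09 in female 1, 1.01 in male 1 and 0.919 in male 2. The CPM of *Reg3g* was 1.63-fold higher in FXR-/- female 1 than in its FXR+/+ counterpart, while the ratio of FXR-/- to FXR+/+ was 0.635 in male 1 and 0.676 in male 2. *Reg3a* had CPM ratios of 2.29, 0.410 and 1.99. The test of whether the genotype difference itself depended on sex called no member, against 0% of all genes. For *Reg3a* the interaction was 1.77 on the log2 scale (SE 1.12), and it rests on 1 female library of each genotype.

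The second question was how far the members followed acinar RNA. The slope is the log2 change of a gene's TMM-scaled level for each doubling of the acinar share, in a fit with genotype. The share carries no TMM factors. These were lower in the male 1 libraries (0.979 in FXR+/+, 0.892 in FXR-/-) than in the female libraries (1.07 and 1.08). A gene in constant ratio to acinar counts would thus have a slope somewhat above 1. *Reg1*, *Reg2* and *Reg3d* rose with the acinar share and passed the test, that is 3 of 6 members against 0.650% of all genes with a positive slope called. The slope was 0.93 (SE 0.0801, adjusted p = 0.00520) for *Reg1*, 0.89 (SE 0.113, adjusted p = 0.0190) for *Reg2* and 1.05 (SE 0.107, adjusted p = 0.00834) for *Reg3d*. The order of the 6 libraries by *Reg1* was exactly their order by acinar share. By *Reg2* and by *Reg3d* the order was the same but for the male 1 libraries, which changed places.

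*Reg3a*, *Reg3b* and *Reg3g* scattered more widely around the acinar share. Their slopes were 1.00 (SE 0.351, adjusted p = 0.253), 0.73 (SE 0.384, adjusted p = 0.426) and 0.47 (SE 0.411, adjusted p = 0.641), and none passed the test. The median slope of the 6 members was 0.91, and that of all genes tested was below 0.01.

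The calls depended on single libraries and, for *Reg2*, on the scaling. Without FXR+/+ male 1, no member passed, with slopes of 0.94 (adjusted p = 0.0652) for *Reg1*, 0.61 (adjusted p = 0.211) for *Reg2* and 0.83 (adjusted p = 0.142) for *Reg3d*. Without FXR-/- male 2, *Reg2* was lost (0.88, adjusted p = 0.101). With library size alone in place of TMM, *Reg2* was lost as well (0.76, adjusted p = 0.0592). Without FXR-/- male 1, which had the highest acinar share, all 3 passed (adjusted p from 0.0298 to 0.0431). For *Reg3b* the slope ran from 0.046 to 1.12 with a library left out. With the replicate number as a block none passed either, at 0.86 (adjusted p = 1.00), 1.39 (adjusted p = 0.732) and 1.49 (adjusted p = 0.245), a fit that uses only acinar differences within pairs, which were 1.04-fold in the male 1 pair.

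**Figure D3:**
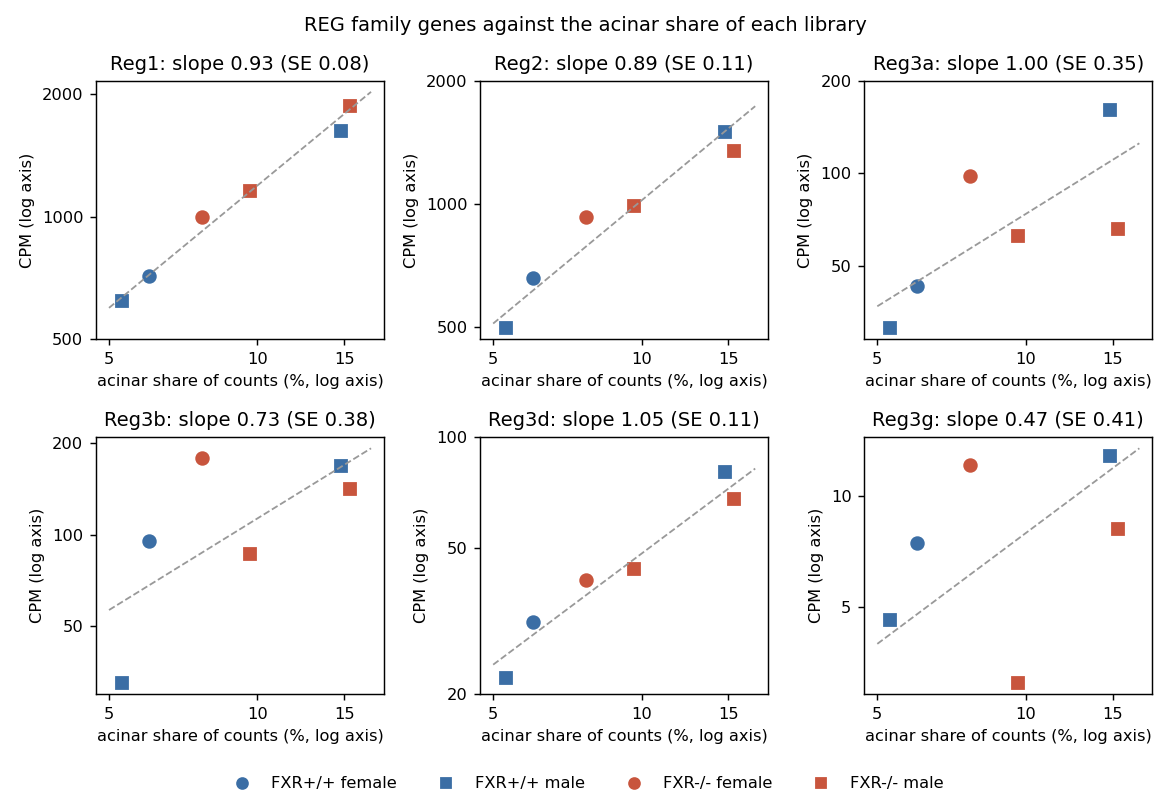
Level of each REG gene (CPM, log axis) against the acinar share of counts (percent, log axis) in the 6 libraries. The dashed line has a slope of 1 and passes through the mean of the points. It is a guide only, since CPM carries the TMM factors and the share does not. Reg1, Reg2 and Reg3d lie along the dashed line. For Reg3b and Reg3g both female libraries lie above the line, as do the FXR+/+ males for Reg3g, and FXR+/+ male 1 lies about on it for Reg3b.

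A ratio to acinar RNA within each library needs no normalization between libraries. *Reg1* had 12.7, 10.8 and 12.3 counts per 1000 acinar counts in FXR+/+ female 1, male 1 and male 2, and 13.9, 10.8 and 11.3 in the FXR-/- libraries. The highest library was 1.29-fold above the lowest, where the CPM of *Reg1* spanned 3.01-fold. For *Reg3d* the range narrowed from 3.62-fold to 1.45-fold and for *Reg2* from 3.02-fold to 1.66-fold. For *Reg3g* it did not narrow, at 4.12-fold for CPM and 5.56-fold per acinar count. No member had genotypes that did not overlap on this scale, against 0.549% of all genes. Without FXR-/- female 1, *Reg2*, *Reg3a*, *Reg3d* and *Reg3g* were lower in both remaining FXR-/- libraries than in all FXR+/+ libraries. That is 4 of 6 members against 3.55% of all genes. With any other library left out, no member had genotypes that did not overlap. Without FXR+/+ male 1, 82% of all genes had such genotypes. Shares of all genes on this scale thus depend strongly on the acinar denominator, and 3.55% is a weak baseline for the members. The exact two-sided permutation test over the 20 relabellings, which cannot give a p below 0.1, gave p between 0.5 and 0.9 for the 6 members.

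With a term for acinar RNA beside sex, the genotype differences of *Reg1* (0.12, SE 0.105), *Reg2* (0.020, SE 0.118) and *Reg3b* (0.051, SE 0.137) were close to 0. That of *Reg3d* turned to -0.14 (SE 0.0945), and those of *Reg3a* and *Reg3g* were -0.26 (SE 0.332) and -0.57 (SE 0.321). None of the members was called, against 0.0479% of all genes.

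The third comparison was between the sexes, with 2 female and 4 male libraries. In the fit with genotype alone no member was called, against 0.0547% of all genes. The log2 difference, female minus male, ran from -0.63 for *Reg1* to 0.50 for *Reg3g*. The females held acinar shares of 6.02% and 7.72%, within the range of the males, 5.31% to 15.4%. The highest shares were those of the male 1 libraries, so acinar RNA was not balanced between the sexes but did not separate them. Per 1000 acinar counts, *Reg3b* was at 1.69 and 2.49 in the females, and at 1.11, 0.646, 0.819 and 0.845 in the males. *Reg3g* was at 0.133 and 0.169 in the females, and at 0.0849, 0.0913, 0.0472 and 0.0305 in the males. Both females thus stood above all males for *Reg3b* and *Reg3g*, and the same was found for *Reg1*, *Reg2* and *Reg3d*, by smaller margins. Only *Reg3a*, at 0.765 and 1.37 in females and up to 1.06 in males, overlapped. That makes 5 of 6 members with females higher and no overlap, against 8.96% of all genes on this scale. A gene that does not follow acinar RNA takes its ratio largely from the denominator, whose share was lowest in FXR+/+ male 2. Such a gene is unlikely to have both females above all males, so 8.96% is no baseline for genes that follow acinar RNA. The members share a denominator and a locus, so they are not independent of each other.

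In the fit with sex, genotype and acinar RNA, *Reg3b* was higher in females by 1.44 on the log2 scale (SE 0.161, adjusted p = 0.0302), the only member called, against 0.0342% of all genes called higher in females. The other members were also above 0, with 1.30 (SE 0.368, adjusted p = 0.327) for *Reg3g*, 0.81 (adjusted p = 0.560) for *Reg3a*, 0.31 (adjusted p = 0.416) for *Reg3d*, 0.25 (adjusted p = 0.613) for *Reg2* and 0.054 (adjusted p = 0.934) for *Reg1*. Their median was 0.56, and that of all genes below 0.01. This fit leaves 2 residual degrees of freedom and was an alternative to the fit without the acinar term. The *Reg3b* difference was 1.20 to 1.68 with each library left out in turn, and it was not called without FXR+/+ male 2 (adjusted p = 0.236) or without FXR-/- male 2 (adjusted p = 0.131). Each genotype has a single female library. Both carry the same replicate number, and same-numbered libraries deviated together, so the sex comparison sets 1 pair against 2 pairs, the 6 libraries are not independent in it, and sex and that pair cannot be told apart.

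**Figure D4:**
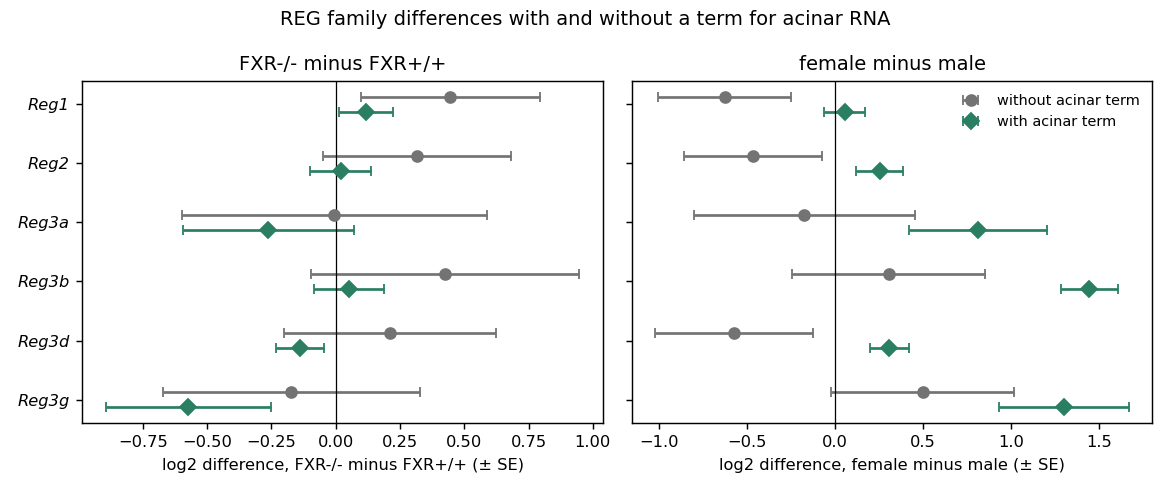
Log2 differences of the REG genes between genotypes (left, FXR-/- minus FXR+/+) and sexes (right, female minus male), with bars of ± 1 SE, from fits without (grey circles) and with (green diamonds) a term for acinar RNA. With the term, the genotype differences of Reg1, Reg2 and Reg3b lie near 0, and the sex difference of Reg3b is 1.44.

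**Figure D5:**
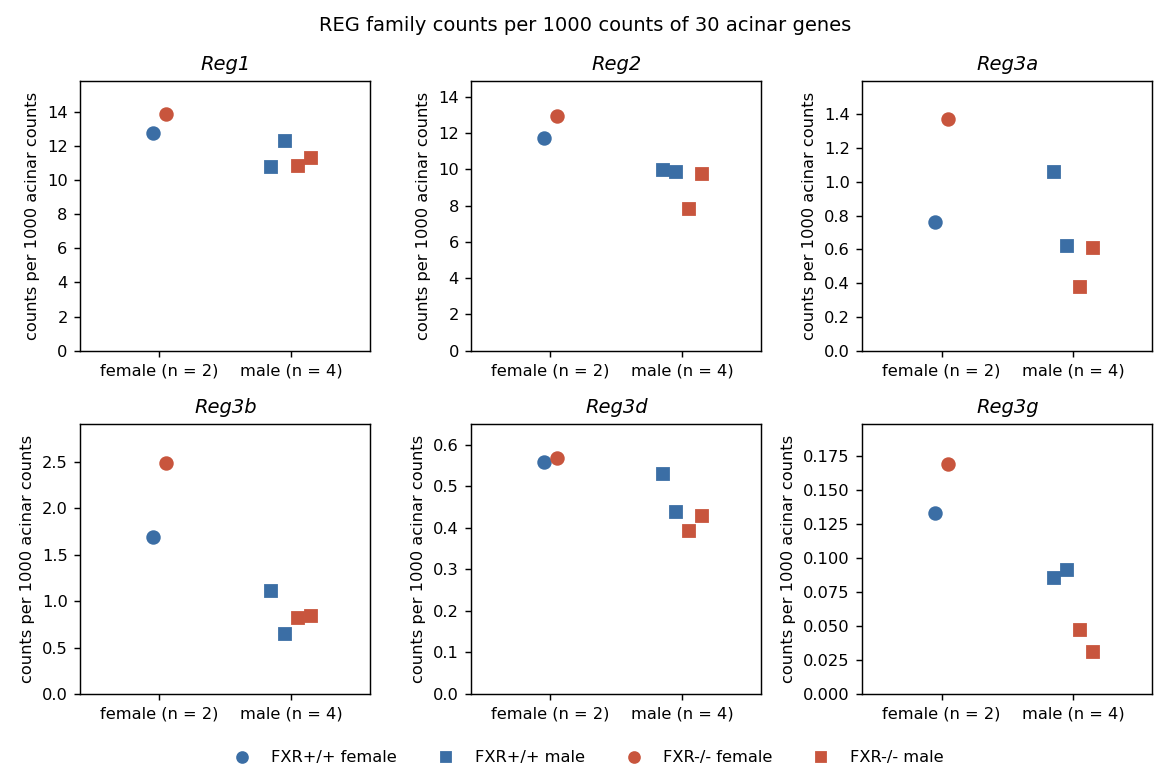
Counts of each REG gene per 1000 counts of the 30 acinar genes (linear axis from 0) in the 2 female and 4 male libraries, coloured by genotype. Both female points lie above all male points in every panel except that of Reg3a.

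The same fit called 13 genes for sex, 0.0889% of all, of which 5 were higher in females. Besides *Reg3b* these were *Xist*, the RNA of the inactive X chromosome, *Kdm6a*, which escapes X inactivation, the metallothionein *Mt2* and the kinase *Pdk4*, which restrains pyruvate oxidation. These 4 genes are named for the smallness of the count, after their values were seen. *Mt2* differed by 1.04 (SE 0.111, adjusted p = 0.0234) and *Pdk4* by 1.12 (SE 0.101, adjusted p = 0.00930). The trypsinogens *Prss3* and *Gm5771* were among the 8 genes lower in females, although the share of the acinar list as a whole is in the fit. Alpha cell markers moved with sex as well, since their 6 genes took 4.03% and 4.11% of the counts in the females and 2.27% to 2.70% in the males. The macrophage markers took 0.0141% to 0.0163% in females and 0.0117% to 0.0156% in males, and 6 neutrophil markers together had no more than 76 counts in any library. What part these have in the difference of *Reg3b* was not tested.

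With sex in the fit, the slopes on acinar RNA were 0.95 for *Reg1*, 1.00 for *Reg2*, 1.20 for *Reg3d*, 1.37 for *Reg3a*, 1.50 for *Reg3b* and 1.11 for *Reg3g*. *Reg3b* then passed the test (SE 0.139, adjusted p = 0.00762), which made 4 members called against 0.992% of all genes with a positive slope. *Reg3a* (adjusted p = 0.113) and *Reg3g* (adjusted p = 0.148) did not. This fit was added after the values were seen.

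The genes nearest to each member over the 6 libraries were sought as those with the smallest root mean square difference of centred log2 CPM, among 10868 genes with a mean of at least 5 CPM. For *Reg1* they were *Dmbt1*, a secreted scavenger receptor protein (difference 0.0586), *Cabp2*, and the acinar genes *Pnliprp1*, *Clps* and *Gp2*, where the median of the pool was 0.596. For *Reg2* they were *Muc1*, *Hpn*, *Dmbt1*, *Clps* and *Pnliprp1*, and for *Reg3d* they were *Muc1*, *Pnliprp1*, *Dmbt1*, *Hpn* and *Slc39a5*. The neighbours of the other members were genes that are no acinar enzymes. *Reg3b* lay nearest *Prph* (0.204), *Abca8a*, *Chl1*, *Thy1* and *Eln*. *Reg3a* lay nearest *Abca8a* (0.290), *Acta2*, *Arhgdib*, *Itih4* and *6330403A02Rik*. *Reg3g* lay nearest *Cish* (0.314), a target of STAT5, followed by *Lama2*, *Lcp1*, *Fmo2* and *Mt2*. Between members, *Reg2* and *Reg3d* were closest (0.106), then *Reg1* and *Reg2* (0.135) and *Reg1* and *Reg3d* (0.164), while every other pair was at 0.417 to 0.739.

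Acinar genes gave the scale for these slopes. Of the 30 enzymes and secreted proteins, 20 passed with a positive slope, as they must in part because they make up the acinar share. The median slope of the 30 was 1.09, and the range was from -1.06 for *Amy2b* to 1.53. The 5 most abundant were *Ctrb1* (slope 1.19), *Cela2a* (1.17), *Pnlip* (1.07), *Cela1* (1.06) and *Cel* (1.18), of which *Cela1* and *Cel* passed. Both were lost with the replicate number as a block (adjusted p = 1.00) and without FXR+/+ male 1 (adjusted p = 0.149). Of 5 acinar transcription factors, *Rbpjl*, the acinar partner in the PTF1 complex, had 1.24 (SE 0.120, adjusted p = 0.00777) and *Gata4* had 0.92 (SE 0.133, adjusted p = 0.0314). *Ptf1a* itself had 1.08 (adjusted p = 0.0520) and *Nr5a2* 1.05 (adjusted p = 0.0651). The remaining factor, *Bhlha15*, at 49.1 to 86.5 CPM, did not rise with the share in this way (0.15, SE 0.180, adjusted p = 0.739).

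Genes of pancreatic injury and the acute phase were listed because REG genes are often measured beside them. Of 25, 13 passed the filter, and 6 of these rose with the acinar share, against 0.650% of all genes. The median slope over the list was 1.00, near that of the acinar genes. The 6 were called on this slope, and injury itself was not tested. They were *Tff2*, a trefoil peptide (1.18, adjusted p = 0.00432), *Pdia2* (1.08, adjusted p = 0.00303), *Dmbt1* (1.00, adjusted p = 0.00520), *Clu* (0.77, adjusted p = 0.00792), the stress factor *Nupr1* (1.38, adjusted p = 0.0119) and the chemokine *Cxcl2* (3.71, adjusted p = 0.0335). *Cxcl2* was at 0 CPM in FXR+/+ male 2 and at 13.5 CPM in FXR-/- male 1. None of the list was called for genotype. Its members *Krt19* and *Sox9*, both ductal markers, had an unadjusted p under 0.05. *Tff2* was also listed among the ductal markers.

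The signals that act upstream of REG genes were read on the same slope. Of 17 cytokines and receptors tested, *Tnf* rose with the acinar share (2.93, SE 0.409, adjusted p = 0.0285), from 0.0631 CPM in FXR+/+ male 2 to 6.47 CPM in FXR-/- male 1. *Il22ra1*, the receptor subunit for interleukin 22, had a slope of 1.02 (adjusted p = 0.0612). *Il6* itself did not pass the filter on low counts, and *Il22* was not among the genes listed. Of 18 JAK/STAT and other transcription factors none was called, and *Socs3*, a feedback gene of STAT3 signalling, had 1.76 (SE 0.431, adjusted p = 0.132). The *Socs3* level was 40.5, 77.0 and 9.56 CPM in FXR+/+ and 21.5, 151 and 57.5 CPM in FXR-/-, so the male 1 library was highest in each genotype. With the replicate number as a block, none of *Rbpjl*, *Gata4*, *Tnf* and the 6 called injury genes passed (adjusted p from 0.165 to 1.00), and without FXR+/+ male 1 only *Tff2* (adjusted p = 0.0101) and *Pdia2* (adjusted p = 0.0196) did.

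No gene of these upstream lists was called for genotype. *Stat5b*, which carries growth hormone and prolactin signals, had a log2 difference of 0.38 (SE 0.0720, adjusted p = 0.239), with 91.4, 72.8 and 76.6 CPM in FXR+/+ and 116, 96.6 and 99.6 CPM in FXR-/-. *Il6st*, the shared receptor chain of the interleukin 6 family, had 0.42 (SE 0.0921, adjusted p = 0.294), with 67.6, 66.1 and 64.7 CPM against 88.3, 97.2 and 79.9 CPM. Both genes did not overlap between genotypes, as was so for 15.4% of all genes tested. Others of these lists did not overlap either, among them *Tnfrsf1a* and, lower in FXR-/-, *Il6ra*. DESeq2 called *Stat5b* and *Il6st* (adjusted p = 0.00297 and 0.0202). *Stat5a* (0.41, adjusted p = 0.410), *Stat3* (0.25, adjusted p = 0.478) and *Tnfrsf1a* (0.38, adjusted p = 0.430) were above 0 without passing the test, and *Il6ra* had -0.30 (adjusted p = 0.430). For the REG receptor and its signal partners, *Extl3*, which binds REG proteins, had 0.17 (SE 0.0970, adjusted p = 0.538), *Cd38* had 0.46 (adjusted p = 0.430) and *Hmgb1* had -0.22 (adjusted p = 0.480), and none of the 7 was called.

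Markers of the intestinal epithelium, another tissue that makes REG transcripts, were examined as well. All 8 genes of the intestinal epithelium list together took 0.00980% to 0.0148% of the counts, 4 of them were at 0 in some library and 2 passed the filter, with no slope called. Most of these counts were of *Vil1*, the gene of an actin-binding protein of microvilli, which had 91.5, 99.1 and 122 CPM in FXR+/+ and 87.1, 103 and 118 CPM in FXR-/-. *Lgals4*, at 5.31 to 8.84 CPM, was the one with an unadjusted p under 0.05 for genotype, with a log2 difference of -0.45 that did not pass the test. The FXR target list had 3 genes tested of 9, with none called for genotype.

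The deposited exon counts gave a second reading of each member. They hold a small part of the gene counts: 11.0% for *Reg1*, 12.4% for *Reg3a*, 10.6% for *Reg3b*, 11.3% for *Reg3d*, 16.0% for *Reg3g* and 0.333% for *Reg2*, where the median over the genes tested was 50.7%. Of the exon counts, 92.6% to 98.9% fell in the last exon of a member, and 61.2% in the last exon of *Reg2*. The last exon of *Reg1*, at chr6:78428399-78428666, was counted 1557, 3623 and 1847 times in FXR+/+ and 2425, 4120 and 3309 times in FXR-/-. Its slope on the acinar share was 1.10 (SE 0.0811, adjusted p = 4.55e-05, edgeR over 26998 exons), and the slope passed also for the last exon of *Reg3d* (1.26, adjusted p = 0.000679) and of *Reg2* (0.97, adjusted p = 0.0392), against 1.58% of exons with a positive slope called. It did not pass for the last exons of *Reg3a* (1.28, adjusted p = 0.0613), *Reg3b* (0.92, adjusted p = 0.125) and *Reg3g* (0.32, adjusted p = 0.640). No exon of a member was called for genotype, against 0.0185% of exons.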

How the data were processed

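Islets of FXR+/+ and FXR-/- mice were profiled by poly(A)-selected RNA-seq. Per the labels, reads were aligned with HISAT; its version, the counter, the annotation and strand use are not given in the sources used here. The authors deposited raw gene counts and raw exon counts, both unnormalized (exon positions are GRCm38), and a table of their own genotype comparison (fold changes and p-values), which was not used. Groups came from the labels.

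The tests on gene counts used edgeR 4.0.16 under R 4.3.3 (filterByExpr, minimum count 10 and total 15; TMM; glmQLFit and glmQLFTest; Benjamini-Hochberg over all 14619 genes; threshold 0.05), with terms for sex and genotype (3 residual degrees of freedom), for genotype and log2 acinar share, and for sex, genotype and acinar share together. Standard errors are the log2 value over the square root of F. Ratios used raw counts. The code was tested on simulated data, where the share of false calls exceeded the threshold, so calls close to it are less certain. Sequences came from RefSeq and GENCODE vM21. Members and gene lists were chosen with earlier results of these data known. Genes named are the members, *Nr1h4*, the 5 nearest profiles per member, the 5 most abundant acinar genes, list genes with an unadjusted p under 0.05 for genotype or, chosen after their values were seen, a called slope, and *Extl3*, *Stat3*, *Socs3*, *Il6ra* and *Il22ra1*. Outside these rules, *Ptf1a*, *Nr5a2*, *Bhlha15*, *Amy2b*, *Vil1*, *Il6* and *Il22* were named, as were *Xist*, *Kdm6a*, *Pdk4* and *Gm5771* from the sex fit. Same-numbered libraries deviated together (r across genes 0.361 for female 1, 0.367 for male 1 and 0.323 for male 2; other pairs 0.0200 or below), so the numbers were taken as pairs; what they mark is not stated. Alternatives were other scalings, filters, DESeq2 1.42.0, exon sums, a replicate block, other acinar indices and each library left out.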

Additional observations from a re-analysis of the deposited data

Results flagged for a closer look

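Of 12 sets of 4 male values examined (the CPM and the counts per 1000 acinar counts of each of the 6 counted REG genes), 1 held a library far from the others. *Reg2* had 7.81 counts per 1000 acinar counts in FXR-/- male 1, against 9.71, 9.87 and 9.94 in the other males, so that the gap to the nearest of them was 0.890 of the whole range, past the limit of Dixon's test. Chance gives such a library in about 1 in 20 sets.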

How the results depend on the processing

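With 3 libraries a genotype, 2 females and 2 or 3 residual degrees of freedom, only large differences could be called, and *Reg3g* (74 to 300 counts) is the least precise member. No REG gene was called for genotype in any of 19 alternatives. The genes called for genotype among all tested were 0, but 24 with the replicate block, 177 with DESeq2, 4 with exon counts summed per gene and 7 with the acinar term. Estimates near 0 changed sign: *Reg3a* (-0.0048) was 0.33 with the block and 0.17 with exon sums, and -0.58 to 1.10 with a library left out; *Reg3d* was -0.14 with the acinar term and -0.15 to 0.91 with a library left out. With a library left out *Reg1* ran from 0.14 to 0.93, *Reg3b* from 0.040 to 1.40, *Reg3g* from -0.63 to 0.46, *Reg2* from -0.0032 to 0.91 and *Socs3* from -0.14 to 1.41.

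The 3 members called for the acinar slope were 0 under the replicate block, where 4 genes were called in place of 95 and *Reg3g* had -0.085, and 0 to 3 with a library left out, where 35 to 160 genes were called, *Reg3a* ran from -0.40 to 1.41 and *Reg3g* from -0.24 to 1.00. With library size alone the slope of *Reg2* was 0.76 and was not called. The acinar term without genotype called 252 genes, and the term with sex and genotype 147.

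For sex, the acinar term called 1 member and 13 genes, and gave 0.054 for *Reg1*, 0.25 for *Reg2*, 0.81 for *Reg3a* and 0.31 for *Reg3d*, all below 0 without it. Without that term 8 genes were called, 83 with DESeq2 and 5 to 14 with a library left out, where *Reg3a* ran from -1.15 to 0.62, *Reg3b* from -0.075 to 1.03 and *Reg3g* from -0.21 to 1.12. With library size alone *Reg3a* was 0.010. With the acinar term, 23 genes were called with library size alone and 54 with DESeq2, and with a library left out 0 to 3 members and 8 to 453 genes. Per 1000 acinar counts, 0 members had genotypes apart, and 0 to 4 with a library left out (4 without FXR-/- female 1). The causes were not tested. The replicate block changed no genotype call of a member, and sex could not be fitted beside it, since both libraries of a pair are of 1 sex.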
